A study of Mus musculus with 9 samples.

Results

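The 37 genes described here encode the urea cycle and the main routes by which liver makes and breaks down amino acids. They were taken as a fixed list of symbols, chosen with earlier results of these data known. Of these symbols 37 of 37 were among the 24421 measured. Levels were measured in 9 liver tumors from C57BL/6 mice at 11 weeks of age, divided evenly among the groups S7HP+Snail (tumors 13, 14 and 15), S7HP (tumors 9, 11 and 12) and LHP (tumors 2, 3 and 6). Column names in the files tie S7HP to Smad7, which inhibits signaling from TGF-β receptors, and LHP to Luc, the usual short form for luciferase. S7HP+Snail adds Snail, the zinc finger repressor encoded by Snai1, and the letters H and P, which all 3 groups share, are not spelled out in the sources used here. How the constructs were delivered, what drives them and whether the tumors came from separate animals are likewise not given in the sources used here, so p-values measure only the spread between these tumors.

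Expression was read by QuantSeq, which sequences a tag near the 3′ end of each polyadenylated transcript. Values are on the log2 scale of a quantile-normalized read count plus 1, so a difference of 1 is a doubling. Quantile normalization gave the 9 libraries nearly the same total, between 19910396 and 19911234 normalized counts, and their own depths are not preserved. A gene was tested if its log2 value was at least 4 in at least 3 libraries, which 14215 genes met, and calls were made where limma's p, adjusted over all of them by Benjamini-Hochberg, was under 0.05. Of the 37 genes, 36 were tested, and 35 of these were at 4 or above in all 9 libraries (the exception was Prodh). Amt, a subunit of the glycine cleavage system, was not tested. It was listed at 0 in 8 of 9 libraries and at 2.19 in S7HP tumor 12, where 3 reads would give 1.83 if the lowest steps are single reads.

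The urea cycle disposes of the ammonia released when amino acids are broken down. In hepatocyte mitochondria carbamoyl phosphate synthetase (Cps1), switched on by the product of Nags, and ornithine transcarbamylase (Otc) make citrulline, and in the cytosol Ass1, Asl and Arg1 turn citrulline into arginine and then urea. Liver feeds this cycle through glutamate dehydrogenase and the aminotransferases, and it is also the main site of tyrosine, tryptophan and methionine breakdown. Serine, glycine and asparagine synthesis, by contrast, is a route known from growing cells and from the ATF4 response to amino acid shortage.

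The label "liver tumor" was checked on hepatocyte markers. The summed level of 11 hepatocyte markers was 17.6 to 18.7 in S7HP+Snail tumors, 17.8 to 19.6 in S7HP tumors and 16.6 to 17.4 in LHP tumors on the log2 scale. None of the 3 groups lacked hepatocyte transcripts, and S7HP tumor 9 held the highest sum. Smad7 itself averaged 7.36 ± 0.62 in S7HP+Snail, 6.52 ± 0.27 in S7HP and 10.07 ± 0.52 in LHP tumors (log2, SD, n = 3 each). Snai1 averaged 8.10 ± 0.69 in S7HP+Snail, 6.48 ± 0.39 in S7HP and 10.69 ± 0.66 in LHP tumors (log2, SD, n = 3 each). Both genes were thus highest in LHP. A construct adds to a 3′ tag count only where it carries the tagged end of the gene, which is not stated, so these levels do not check the labels.

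In S7HP against LHP, 10 of the 36 tested genes rose and 0 fell, which is 27.8% higher and 0% lower beside 9.47% higher and 9.54% lower among all 14215 genes tested. The median change of the 36 was 1.05 on the log2 scale, with a range of -0.50 to 2.61 and 31 positive values, against a median of 0.02 over all genes. At an unadjusted p under 0.05 in limma, 15 of the 36 were higher and 1 was lower, beside 2447 higher and 2445 lower of all 14215. In 13 genes every S7HP tumor was above every LHP tumor, and in 1, Got1, every S7HP tumor was below. These are 36.1% of the 36 for the higher direction, where 20.9% of all genes tested separated in that way and 21.3% in the lower direction. The 10 that rose were Shmt1, Gldc, Glud1, Kynu, Otc, Cth, Gpt, Psat1, Gpt2 and Gls2. The count depended on single libraries. It was 4 without S7HP tumor 9, 6 without LHP tumor 2, 5 without LHP tumor 3 and 4 without LHP tumor 6, and it was 6 without both S7HP tumor 9 and S7HP+Snail tumor 14.

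**Figure D1:**
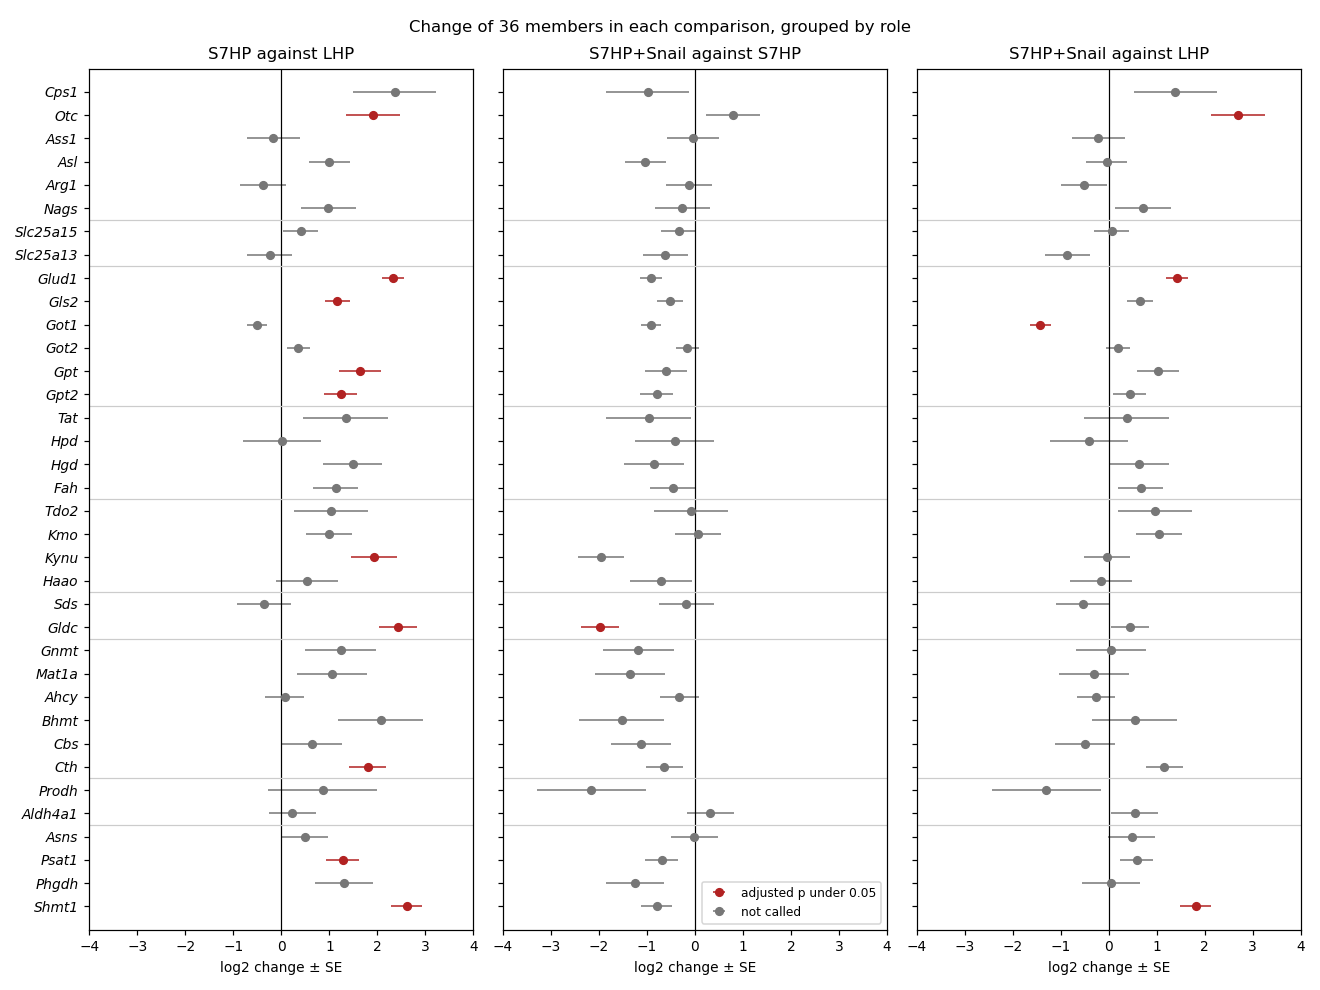
Log2 change (x axis) of the 36 tested genes in 3 comparisons, with bars of ± 1 SE from limma, red where the adjusted p is under 0.05 and grey lines between role groups. In S7HP against LHP 31 of 36 points lie right of 0, while in S7HP+Snail against S7HP 33 of 36 lie left of it.

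Hepatocyte markers moved with these genes. Of the 11 hepatocyte markers, 5 rose (45.5%) and 0 fell in S7HP against LHP, with a median change of 1.60. The stellate cell and fibroblast markers went the other way, with 6 of 11 falling, 54.5% (summed level 13.0 to 13.6 in S7HP and 15.7 to 16.2 in LHP). Among all genes tested 9.47% were higher and 9.54% lower. Among the 36 genes, 9 had a change above the hepatocyte median: Shmt1, Gldc, Cps1, Glud1, Bhmt, Kynu, Otc, Cth and Gpt. The part of hepatocyte or stromal content in the result was not tested, and in bulk tumor RNA fewer cells of a type and less RNA per cell cannot be told apart.

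The urea cycle enzymes did not move as a block. Among the 6 enzymes, 1 rose in S7HP against LHP (16.7%, beside 9.47% of all genes tested), and their median change was 0.99. Otc (chromosome X, 10252305 to 10321024, GRCm38), which joins carbamoyl phosphate to ornithine, was the one that passed. Its log2 values were 9.40, 9.82 and 8.53 in S7HP+Snail, 9.45, 8.45 and 7.46 in S7HP and 5.75, 7.21 and 6.70 in LHP tumors. All 6 tumors with the S7HP label were above all 3 LHP tumors. Otc was higher by 1.90 ± 0.56 (SE) in S7HP (limma adjusted p = 0.0418) and by 2.69 ± 0.56 (SE) in S7HP+Snail (limma adjusted p = 0.0241), each against LHP. The second of these is a 6.47-fold difference. Otc was the only urea cycle enzyme of the 6 with a positive change in S7HP+Snail against S7HP, at 0.79 ± 0.56 (SE), which was not past the threshold (limma adjusted p = 0.501). The Otc call in S7HP against LHP was lost in 9 of 16 alternative settings, with adjusted p values up to 0.129, and the one in S7HP+Snail against LHP in 3 of 16, up to 0.0763.

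Cps1 (chromosome 1, 67123026 to 67231259), the entry enzyme of the cycle, had log2 values of 9.18, 10.54 and 8.58 in S7HP+Snail, 12.46, 9.07 and 9.71 in S7HP and 7.81, 9.09 and 7.25 in LHP tumors. S7HP tumor 9 stood more than 2 above the other S7HP tumors, and tumor 11 lay just below LHP tumor 3. The S7HP mean was 2.36 ± 0.86 (SE) above LHP and did not pass the test (limma adjusted p = 0.0846), nor did it in any of 16 alternative settings. Nags (chromosome 11, 102145513 to 102149477) makes N-acetylglutamate, the activator of Cps1, and read 7.0, 7.31 and 6.77 in S7HP+Snail, 8.80, 6.75 and 6.31 in S7HP and 5.98, 6.44 and 6.52 in LHP tumors. Again tumor 9 was far above its group. The S7HP+Snail tumors, which lay close together, were all above LHP, by 0.72 ± 0.57 (SE), without a call (limma adjusted p = 0.471).

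None of the 3 cytosolic enzymes was called in limma, and Asl alone reached an unadjusted p under 0.05, in S7HP against LHP and in S7HP+Snail against S7HP. Ass1 (chromosome 2, 31470207 to 31520672), which condenses citrulline with aspartate, read 8.85, 9.90 and 8.53 in S7HP+Snail, 10.44, 8.22 and 8.76 in S7HP and 9.40, 9.45 and 9.06 in LHP tumors. Arg1 (chromosome 10, 24915221 to 24927484), the arginase that releases urea, read 10.82, 9.92 and 10.68 in S7HP+Snail, 11.79, 9.99 and 10.02 in S7HP and 11.44, 10.86 and 10.64 in LHP tumors. In both genes the S7HP range enclosed the LHP range, and the mean changes in S7HP against LHP were -0.16 for Ass1 and -0.38 for Arg1. Asl (chromosome 5, 130011258 to 130029247), which splits argininosuccinate into arginine and fumarate, read 6.17, 6.46 and 5.89 in S7HP+Snail, 7.60, 7.43 and 6.60 in S7HP and 6.70, 6.46 and 5.49 in LHP tumors. Each S7HP tumor was above each S7HP+Snail tumor, a difference of -1.04 ± 0.43 (SE) that did not pass (limma adjusted p = 0.242).

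**Figure D2:**
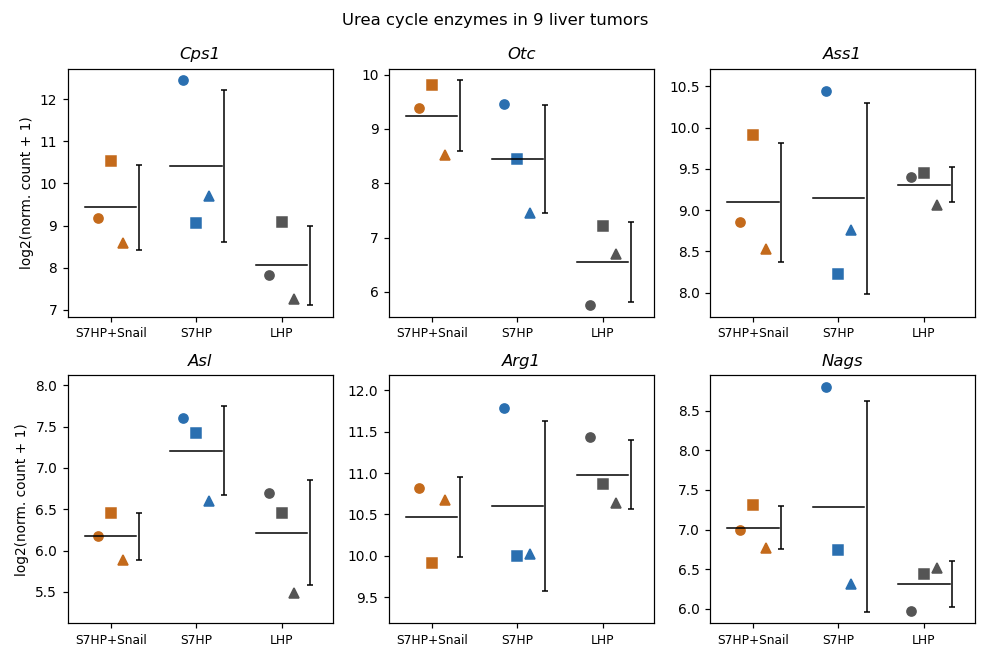
Log2 value (y axis, a different range in each panel) of the 6 urea cycle enzymes in 3 tumors of each group. In each group the circle, square and triangle are single tumors in number order (13, 14, 15; 9, 11, 12; 2, 3, 6), the line is the mean and the bar is the mean ± SD; S7HP tumor 9 (blue circle) is the highest S7HP value in all 6 panels, and the LHP values of Otc all lie below those of the other groups.

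The mitochondrial carriers of the cycle, the ornithine carrier Slc25a15 and the aspartate/glutamate carrier Slc25a13, gave 0 calls in 3 comparisons in limma, and 0 at an unadjusted p under 0.05. Their changes in S7HP against LHP were 0.41 for Slc25a15 and -0.24 for Slc25a13. The groups overlapped in both genes.

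The enzymes that move nitrogen through glutamate gave the most calls. In S7HP against LHP 4 of 6 rose (Glud1, Gls2, Gpt and Gpt2), 66.7% beside 9.47% of all genes tested. Their list had a median change of 1.20, and the 2 aspartate aminotransferases did not rise. Glud1 (chromosome 14, 34310727 to 34345265), the glutamate dehydrogenase that frees ammonia from glutamate, had log2 values of 13.45, 13.49 and 12.87 in S7HP+Snail, 13.94, 14.25 and 14.34 in S7HP and 11.85, 11.79 and 11.92 in LHP tumors. The 3 groups did not overlap at all, and the LHP tumors lay within 0.14 of each other. Glud1 was 5.01-fold higher in S7HP than in LHP (log2 change 2.32 ± 0.23 SE, limma adjusted p = 0.00059) and 2.67-fold higher in S7HP+Snail than in LHP (1.42 ± 0.23 SE, limma adjusted p = 0.00797). Both calls held in 16 of 16 alternative settings. Between S7HP+Snail and S7HP the difference was -0.91 ± 0.23 (SE), which did not pass (limma adjusted p = 0.0766).

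Gls2 (chromosome 10, 128194457 to 128210004), the liver-type glutaminase, read 9.20, 8.86 and 8.55 in S7HP+Snail, 9.73, 9.02 and 9.40 in S7HP and 8.43, 8.11 and 8.11 in LHP tumors. It was higher in S7HP than in LHP by 1.17 ± 0.27 (SE, limma adjusted p = 0.0159), a call lost in 4 of 16 alternative settings (without S7HP tumor 9, LHP tumor 3, LHP tumor 6, or both tumors 9 and 14), with adjusted p values up to 0.061. Its 3′ end overlaps that of Spryd4 on the other strand, which was itself called higher in the same comparison, by 1.12 (limma adjusted p = 0.0253). Whether counting used strand is not given in the sources used here, so reads of the 2 genes may not be told apart. The alanine aminotransferases, which pass amino groups between alanine and glutamate, had a similar pattern. Gpt (chromosome 15, 76695716 to 76699686) read 7.49, 8.72 and 7.66 in S7HP+Snail, 9.34, 8.04 and 8.31 in S7HP and 6.56, 7.25 and 6.97 in LHP tumors, higher in S7HP than in LHP by 1.64 ± 0.43 (SE, limma adjusted p = 0.0279). Gpt2 (chromosome 8, 85492576 to 85527560) read 9.61, 9.87 and 9.24 in S7HP+Snail, 11.18, 9.76 and 10.17 in S7HP and 8.97, 9.17 and 9.26 in LHP tumors, higher in S7HP than in LHP by 1.24 ± 0.35 (SE, limma adjusted p = 0.0342). In both, S7HP tumor 9 was the highest of its group by 1 or more. The calls of Gpt and Gpt2 were lost in 4 and 7 of 16 alternative settings, with adjusted p values up to 0.0927 and 0.0957.

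Got1 (chromosome 19, 43499752 to 43524605), the cytosolic aspartate aminotransferase of the malate-aspartate shuttle, was the only gene called lower against LHP among the 36 tested. Its log2 values were 9.47, 9.49 and 9.66 in S7HP+Snail, 10.14, 10.47 and 10.76 in S7HP and 10.99, 10.89 and 11.01 in LHP tumors. The groups formed 3 separate steps, lowest with Snail and highest in LHP. Got1 was 2.68-fold lower in S7HP+Snail than in LHP (log2 change -1.42 ± 0.21 SE, limma adjusted p = 0.00635), a call that held in 16 of 16 alternative settings. The other steps, -0.92 ± 0.21 (SE) in S7HP+Snail against S7HP (limma adjusted p = 0.0596) and -0.50 ± 0.21 (SE) in S7HP against LHP (limma adjusted p = 0.124), did not pass. Got2, its mitochondrial counterpart, changed by 0.36 in S7HP against LHP and by 0.20 in S7HP+Snail against LHP, with overlapping groups.

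**Figure D3:**
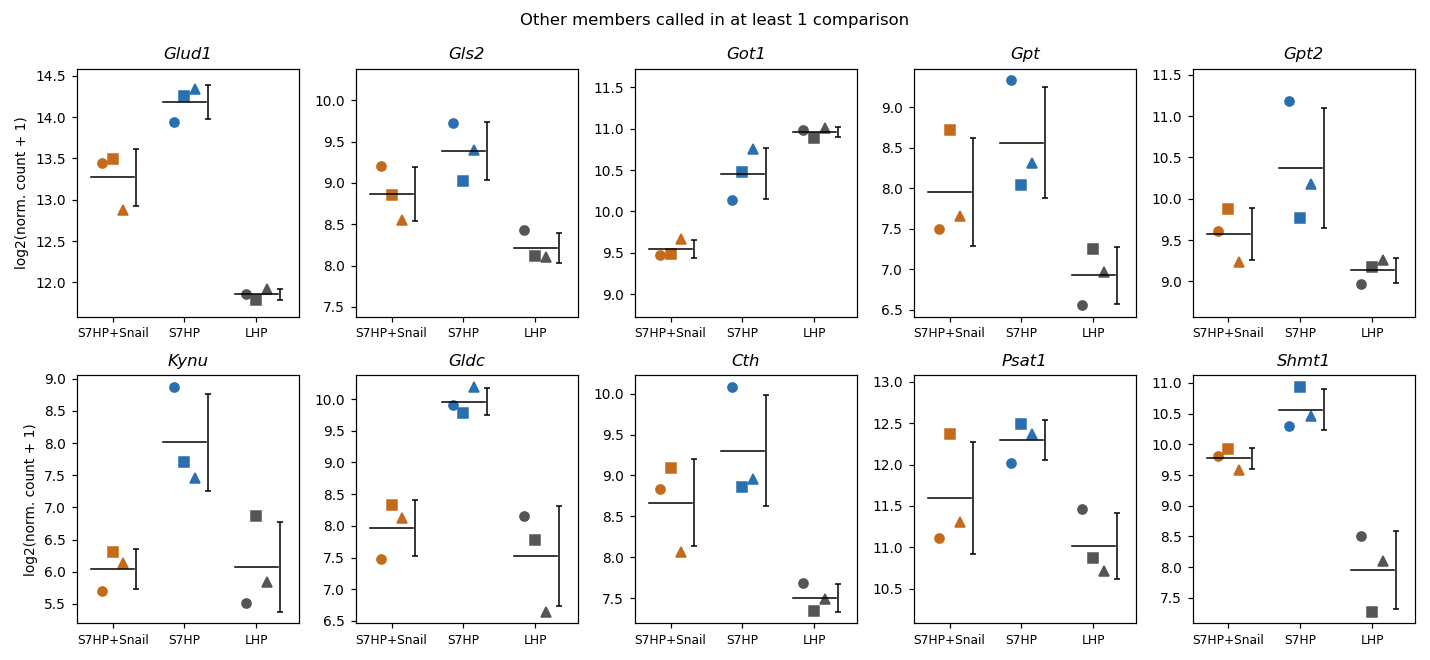
Log2 value (y axis, a different range in each panel) of the 10 other genes called in at least 1 comparison, drawn as in the plot of urea cycle enzymes: circle, square and triangle are single tumors in number order, the line is the mean and the bar is the mean ± SD. Got1 steps upward from S7HP+Snail through S7HP to LHP, Gldc is high in S7HP alone, and Glud1 and Shmt1 are lowest in LHP.

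In tyrosine breakdown, 0 of 4 genes passed in S7HP against LHP in limma, with 2 (Hgd and Fah) at an unadjusted p under 0.05 and a median change of 1.23. Tat, the tyrosine aminotransferase that starts the route, read 6.65, 8.85 and 6.06 in S7HP+Snail, 10.13, 7.10 and 7.23 in S7HP and 7.02, 7.13 and 6.30 in LHP tumors. S7HP+Snail tumor 14 and S7HP tumor 9 each stood well above the rest of their groups. Hgd, the homogentisate dioxygenase, read 7.84, 9.72 and 8.03 in S7HP+Snail, 10.52, 9.16 and 8.48 in S7HP and 7.18, 8.32 and 8.21 in LHP tumors. Fah, the fumarylacetoacetase at the end of the route, read 8.51, 9.08 and 8.42 in S7HP+Snail, 10.18, 8.68 and 8.55 in S7HP and 7.32, 8.48 and 8.21 in LHP tumors. In Hgd and Fah every S7HP tumor was above every LHP tumor, by 1.48 ± 0.62 (SE, limma adjusted p = 0.124) and 1.13 ± 0.47 (SE, limma adjusted p = 0.117) in the mean. Hpd, which makes homogentisate, changed by 0.01.

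In tryptophan breakdown 1 of 4 genes rose in S7HP against LHP (25%, beside 9.47% of all genes tested). Kynu (chromosome 2, 43555329 to 43682715), the kynureninase, read 5.70, 6.30 and 6.14 in S7HP+Snail, 8.88, 7.70 and 7.46 in S7HP and 5.52, 6.87 and 5.84 in LHP tumors. The S7HP tumors stood apart from both other groups, which overlapped. Kynu was 3.83-fold higher in S7HP than in LHP (log2 change 1.94 ± 0.48 SE, limma adjusted p = 0.0216), and the difference of -1.96 ± 0.48 (SE) in S7HP+Snail against S7HP did not pass (limma adjusted p = 0.0723). The call in S7HP against LHP was lost in 4 of 16 alternative settings (without S7HP tumor 9, LHP tumor 2, LHP tumor 6, or both tumors 9 and 14), with adjusted p values up to 0.0757. Tdo2, the dioxygenase that opens the tryptophan ring in liver, changed by 1.04 and Kmo, the kynurenine hydroxylase, by 0.99 in S7HP against LHP, while Haao, which acts after kynureninase on the way to NAD, changed by 0.54. None of these 3 passed. In Kmo the S7HP+Snail tumors were all above LHP.

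Gldc (chromosome 19, 30098447 to 30175429), the decarboxylase of the glycine cleavage system, was the only one of the 36 called both in S7HP against LHP and in S7HP+Snail against S7HP. Its log2 values were 7.47, 8.32 and 8.12 in S7HP+Snail, 9.90, 9.78 and 10.19 in S7HP and 8.15, 7.78 and 6.64 in LHP tumors. The S7HP tumors lay within 0.42 of each other and more than 1 above every other tumor. Gldc was 5.41-fold higher in S7HP than in LHP (log2 change 2.44 ± 0.40 SE, limma adjusted p = 0.00407), a call that held in 16 of 16 alternative settings. It was 3.96-fold lower in S7HP+Snail than in S7HP (-1.99 ± 0.40 SE, limma adjusted p = 0.0354), and this call was lost in 7 of 16 alternative settings, with adjusted p values up to 0.108. S7HP+Snail did not differ detectably from LHP (0.45 ± 0.40 SE, limma adjusted p = 0.514). Sds, the serine dehydratase, changed by -0.36 in S7HP against LHP.

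A promoter stretch of Gldc is shown because it holds the E-box CACCTG, letters that Snail binds. The gene was picked for its call in S7HP+Snail against S7HP, and whether Snail acts on it was not tested. RefSeq's window on GRCm38.p6, from 250 bases before to 50 after the start, was searched for the letters CACCTG on both strands. The capitals in the 30 bases printed (chr19:30175424-30175453, minus strand) mark the match, read here as CAGGTG, which begins at the start that RefSeq gives.

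Gldc: aagtgtgcggagCAGGTGcctgctgaggcg

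Those letters were in 20.2% of all 32851 promoters in the table and in 8 of 30 promoters of the genes described here (28 of the 37 genes matched the table). The other 7 genes with a match were Aldh4a1, Ass1, Gnmt, Hgd, Hpd, Nags and Tat, of which 0 passed in S7HP+Snail against S7HP in limma. A match is a run of letters and not a measured binding site.

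Of the 6 methionine cycle and transsulfuration genes, 1 rose in S7HP against LHP (16.7%, beside 9.47% of all genes tested). All 6 had positive changes, with a median of 1.15. Cth (chromosome 3, 157894248 to 157925077), the cystathionine lyase that makes cysteine, read 8.84, 9.09 and 8.07 in S7HP+Snail, 10.08, 8.86 and 8.96 in S7HP and 7.69, 7.34 and 7.49 in LHP tumors. All LHP tumors were below all others, and Cth was 3.47-fold higher in S7HP than in LHP (log2 change 1.80 ± 0.38 SE, limma adjusted p = 0.0115), which held in 16 of 16 alternative settings. In S7HP+Snail against LHP the change of 1.16 ± 0.38 (SE) did not pass (limma adjusted p = 0.0962). Bhmt, which remethylates homocysteine with betaine, read 8.38, 9.55 and 8.87 in S7HP+Snail, 12.97, 9.57 and 8.84 in S7HP and 7.97, 9.01 and 8.20 in LHP tumors. Tumor 9 was more than 3 above any other tumor, and the change of 2.07 ± 0.89 (SE) in S7HP against LHP did not pass (limma adjusted p = 0.133). Gnmt, the glycine methyltransferase that drains methyl groups, and Mat1a, the liver methionine adenosyltransferase, had changes of 1.23 and 1.06 in S7HP against LHP, and in both tumor 9 was more than 2 above tumors 11 and 12. Cbs, which joins homocysteine to serine, and Ahcy, which splits S-adenosylhomocysteine, changed by 0.63 and 0.07.

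Of the 4 genes of serine, glycine and asparagine synthesis, 2 rose in S7HP against LHP (50%, beside 9.47% of all genes tested). Their median change was 1.29. S7HP tumor 9, the highest of its group for most other genes, was the lowest of its group in all 4. Shmt1 (chromosome 11, 60788104 to 60811718), the cytosolic serine hydroxymethyltransferase that links serine, glycine and folate, read 9.81, 9.92 and 9.59 in S7HP+Snail, 10.30, 10.94 and 10.46 in S7HP and 8.50, 7.27 and 8.10 in LHP tumors. The 3 groups did not overlap. Shmt1 had the highest change of the 36 genes in S7HP against LHP, 6.11-fold (log2 2.61 ± 0.32 SE, limma adjusted p = 0.0012), and was 3.52-fold higher in S7HP+Snail than in LHP (log2 1.81 ± 0.32 SE, limma adjusted p = 0.0133). Both calls held in 16 of 16 alternative settings. The difference of -0.80 ± 0.32 (SE) in S7HP+Snail against S7HP did not pass (limma adjusted p = 0.237). The 3′ end of Shmt1 overlaps that of Smcr8 on the other strand, which changed by 0.43 in S7HP against LHP without a call.

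Psat1 (chromosome 19, 15904678 to 15947337), the phosphoserine aminotransferase, read 11.11, 12.37 and 11.30 in S7HP+Snail, 12.02, 12.50 and 12.37 in S7HP and 11.46, 10.87 and 10.71 in LHP tumors. It was higher in S7HP than in LHP by 1.28 ± 0.35 (SE, limma adjusted p = 0.0303), a call lost in 6 of 16 alternative settings, with adjusted p values up to 0.108. Phgdh, which opens the serine route, read 8.34, 8.53 and 10.40 in S7HP+Snail, 10.08, 10.60 and 10.35 in S7HP and 10.06, 8.02 and 9.06 in LHP tumors. The S7HP and LHP groups were apart by 0.02, and the change of 1.30 ± 0.60 (SE) did not pass (limma adjusted p = 0.16). Asns, the asparagine synthetase and a standard target of ATF4, read 8.25, 8.77 and 7.96 in S7HP+Snail, 7.54, 9.10 and 8.36 in S7HP and 8.79, 7.47 and 7.28 in LHP tumors, and the 3 groups overlapped.

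Promoter stretches of Asns and Got1 are shown because theirs were the 2 windows, of those of the 28 matched genes, that held TGATGNAA, the amino acid response element read by ATF4 with C/EBP proteins. The sequences are 100 bases each from RefSeq's promoters on GRCm38.p6 (chr6:7693210-7693309 for Asns and chr19:43524656-43524755 for Got1, both minus strand), with the match in capitals; in Got1 it lies on the opposite strand and is read here as its reverse complement.

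Asns: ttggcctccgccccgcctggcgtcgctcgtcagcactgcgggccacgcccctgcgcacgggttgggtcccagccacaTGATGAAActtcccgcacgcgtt

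Got1: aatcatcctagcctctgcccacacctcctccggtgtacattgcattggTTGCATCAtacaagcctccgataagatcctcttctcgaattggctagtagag

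The element was in 3.97% of all promoters in the table. Its 2 holders here had changes of 0.49 for Asns and -0.50 for Got1 in S7HP against LHP, and 0 of the 2 passed in that comparison in limma. The last motif searched, CAAAGTCCA, which HNF4 binds, was in 0 of the 30 promoters and in 0.475% of all.

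In proline breakdown, Prodh and Aldh4a1 gave 0 calls in 3 comparisons in limma and 0 at an unadjusted p under 0.05. Prodh, the proline dehydrogenase, read 2.81, 5.14 and 0.00 in S7HP+Snail, 5.35, 4.97 and 4.11 in S7HP and 3.56, 4.19 and 4.09 in LHP tumors. S7HP+Snail tumor 15 was listed at 0. The 3′ ends of Prodh, Hpd, Sds, Gnmt and Aldh4a1 also overlap other genes, and Got2, Bhmt and Phgdh have annotated pseudogenes, so reads may be split there and their levels are uncertain to that extent.

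In S7HP+Snail against S7HP, 1 of the 36 genes fell (Gldc) and 0 rose, 2.78% lower beside 1.29% lower and 1.01% higher among all genes tested (2.3% in either direction). Of the 36 changes, 33 were negative, with a median of -0.67 against -0.02 over all genes. At an unadjusted p under 0.05 in limma, 7 of the 36 were lower and 0 were higher, beside 1321 lower and 1212 higher of all 14215. In 6 genes (Asl, Glud1, Got1, Kynu, Gldc and Shmt1) every S7HP+Snail tumor was below every S7HP tumor, and in 0 every one was above. Among all genes tested 11% separated in the lower and 9.53% in the higher direction. The count was 0 without S7HP tumor 9, 11 or 12, without S7HP+Snail tumor 13, without LHP tumor 3, and without both tumors 9 and 14. Hepatocyte markers gave 0 calls in either direction here, with a median change of -0.83, and 22 of the 36 genes had a change above that median.

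In S7HP+Snail against LHP, 3 genes rose (Glud1, Shmt1 and Otc) and 1 fell (Got1). These are 8.33% and 2.78% of the 36, beside 3.35% higher and 3.87% lower among all genes tested (7.22% in either direction). The median change was 0.41, with 23 positive values, against 0.00 over all genes. In 8 genes every S7HP+Snail tumor was above every LHP tumor and in 1 (Got1) every one was below, where 14.7% of all genes tested separated in the higher and 15.8% in the lower direction. Without S7HP+Snail tumor 13, LHP tumor 2 or LHP tumor 6 the Otc call was lost and 3 calls remained. Of the 11 hepatocyte markers, 2 rose, with a median change of 0.94, which 8 of the 36 genes exceeded. The 3 comparisons share tumors, so their changes are not independent of each other.

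Single tumors set much of the spread. S7HP tumor 9 was the highest S7HP tumor for 29 of 36 genes (80.6%), against 32.1% of all genes tested, and by at least 1 on the log2 scale for 18 (50%), against 5.87%. S7HP+Snail tumor 14 was the highest of its group for 29 of 36 genes (80.6%), against 33.5%, and by at least 1 for 14 (38.9%), against 7.50%. No LHP tumor led its group so often, tumors 2, 3 and 6 being the highest for 12, 17 and 7 genes. The median SD of the 36 genes was 0.618 in S7HP+Snail, 0.743 in S7HP and 0.470 in LHP tumors, and that of all genes tested was 0.453 in S7HP+Snail, 0.406 in S7HP and 0.350 in LHP tumors. Tumors 9 and 14 also had the highest summed hepatocyte markers of their groups, 19.6 for tumor 9 against 17.8 and 18.0 for tumors 11 and 12, and 18.7 for tumor 14 against 18.3 and 17.6 for tumors 13 and 15. The markers of tumor 14 did not all go this way. Ahsg was at 17.60 in both tumors 13 and 14. Fgb, Fgg and Hp were lowest of the group in tumor 14, at 13.38, 12.85 and 13.71. The part of hepatocyte content in the genes' spread was not tested.

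**Figure D4:**
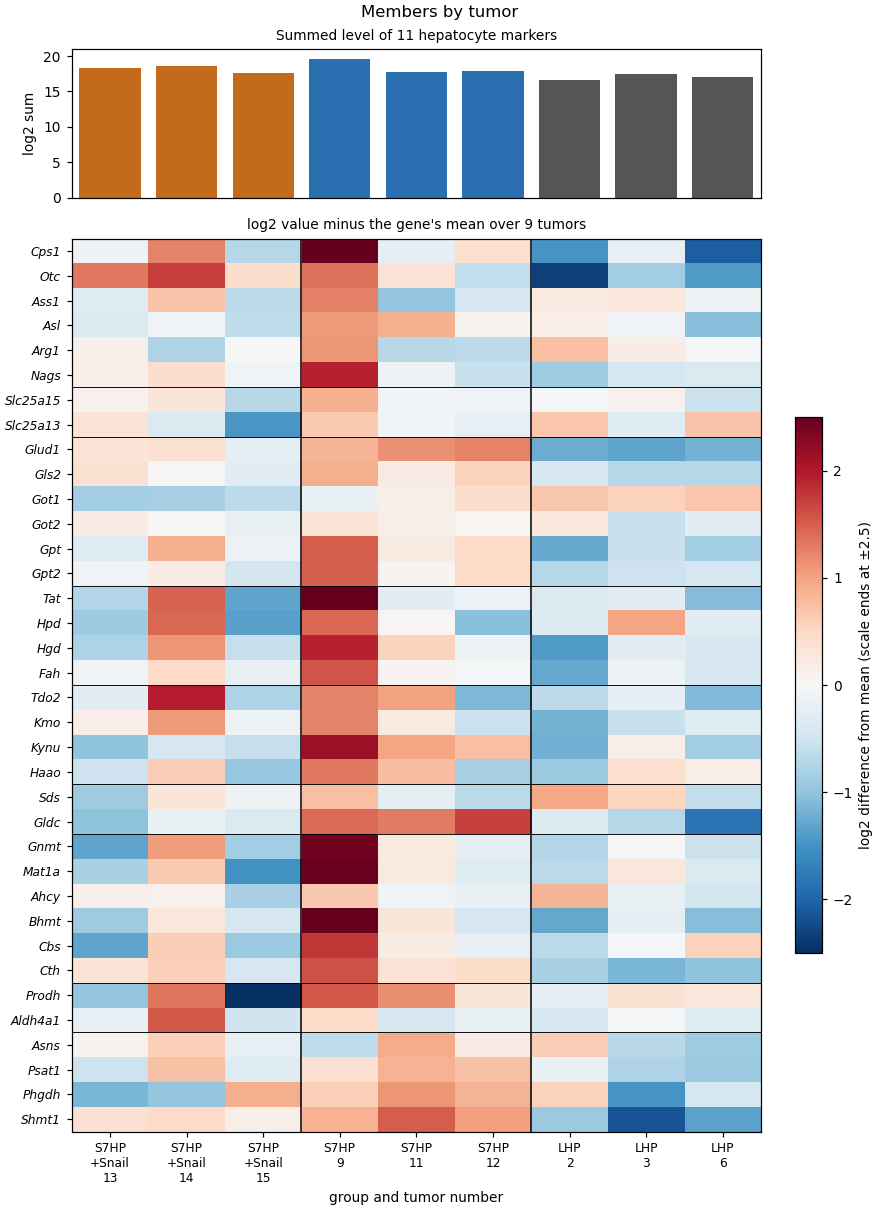
Lower panel: log2 value minus the gene's mean over 9 tumors (colour, scale ending at ±2.5) for 36 genes in rows, grouped by role, and 9 tumors in columns. Upper panel: log2 of the summed level of 11 hepatocyte markers (y axis) in the same tumors; the S7HP tumor 9 and S7HP+Snail tumor 14 columns are the reddest of their groups in 29 of 36 rows each and have the tallest bars of their groups.

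Markers of other cell types gave the following summed log2 levels. Macrophage markers were at 12.9 to 14.0 in S7HP+Snail, 12.7 to 13.0 in S7HP and 13.3 to 13.8 in LHP tumors, and endothelial markers at 12.4 to 12.9 in S7HP+Snail, 12.0 to 12.9 in S7HP and 12.5 to 13.0 in LHP tumors. S7HP tumors were thus below LHP tumors for macrophage markers, and the groups overlapped for endothelial markers. Neutrophil markers were at 11.8 to 15.0 in S7HP+Snail, 12.6 to 14.0 in S7HP and 10.6 to 13.4 in LHP tumors. Mpo and Elane, which were not tested, were at 0 in all S7HP tumors. The 6 neutrophil markers tested were split in S7HP against LHP, with 4 positive and 2 negative changes and 0 calls in limma. Biliary markers were at 14.7 to 18.3 in S7HP+Snail, 15.7 to 17.1 in S7HP and 16.5 to 17.5 in LHP tumors, and erythroid markers at 13.7 to 16.3 in S7HP+Snail, 13.5 to 15.9 in S7HP and 12.6 to 14.4 in LHP tumors. T and NK cell markers were at 6.53 to 9.48 in S7HP+Snail, 7.98 to 9.04 in S7HP and 4.16 to 9.10 in LHP tumors. B cell markers were at 5.37 to 7.49 in S7HP+Snail, 5.79 to 6.51 in S7HP and 5.41 to 7.25 in LHP tumors, with Pax5 at 0 in all 9 tumors. The part of these cells in the results was not tested.

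Other genes of the same pathways were counted from 10 further lists, also chosen with earlier results of these data known. Of 122 such genes 119 were tested, and in S7HP against LHP 32 rose (26.9%) and 4 fell (3.36%), beside 9.47% higher and 9.54% lower among all genes tested, with a median change of 0.72. Over the alternative settings these 36 calls became 24 to 40, the lowest without LHP tumor 3. The regulators of hepatic amino acid genes gave 7 of 11 higher (3 calls without S7HP tumor 9 or LHP tumor 2, up to 8 in other settings) and a median change of 2.25, led by the liver transcription factors Hnf4a (3.05 ± 0.34 SE, limma adjusted p = 0.000809) and Foxa2 (3.25 ± 0.48 SE, limma adjusted p = 0.0028). The other tryptophan and NAD genes gave 6 of 7 higher (3 calls without S7HP tumor 11, 4 without LHP tumor 3 and 3 among genes with a mean of at least 6), among them the kynurenine aminotransferase Ccbl1 (3.36 ± 0.50 SE, limma adjusted p = 0.00269) and Acmsd (3.44), which diverts an intermediate away from NAD synthesis.

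Histidine, phenylalanine and lysine breakdown gave 5 of 12 higher (3 calls without LHP tumor 2, 3 or 6), with Amdhd1 (3.76 ± 0.39 SE, limma adjusted p = 0.000643) and Hal (2.70 ± 0.39 SE, limma adjusted p = 0.00249) of the histidine route and Pcbd1 (2.45 ± 0.26 SE, limma adjusted p = 0.000691), which recycles the cofactor of phenylalanine hydroxylase. Proline, ornithine, arginine and polyamine genes split, with 2 of 12 higher and 2 lower, 16.7% each (2 calls in all without S7HP tumor 11 or LHP tumor 6). Prodh2, the hydroxyproline dehydrogenase, rose by 3.42 ± 0.43 (SE, limma adjusted p = 0.00132), while Azin1, which stabilises ornithine decarboxylase, fell by 1.75 ± 0.30 (SE, limma adjusted p = 0.00518) and Gatm, the enzyme that starts creatine synthesis from arginine, fell by 2.75 ± 0.63 (SE, limma adjusted p = 0.0159). Branched-chain breakdown gave 2 higher and 1 lower of 15. These are 13.3% and 6.67%, and so close to the 9.47% and 9.54% of all genes tested. Dbt, a subunit of the branched-chain keto acid dehydrogenase, rose by 1.96, and Bcat1, the cytosolic branched-chain aminotransferase that liver scarcely uses, fell by 3.83 ± 0.77 (SE, limma adjusted p = 0.00958).

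Among one-carbon genes 2 of 12 rose (16.7%), Psph (2.14 ± 0.28 SE, limma adjusted p = 0.00147), which finishes serine synthesis, and Sdsl (2.40 ± 0.37 SE, limma adjusted p = 0.00303), a serine dehydratase-like gene. Of 13 other methionine and sulfur genes 2 rose (15.4%) and 1 fell (7.69%), beside 9.47% higher and 9.54% lower among all genes tested. Mpst and Tst, a pair of sulfurtransferases, rose by 1.24 and 1.90 and Mtr, the methionine synthase, fell by 1.46 ± 0.29 (SE, limma adjusted p = 0.00889). Of 18 transporters 2 rose, 11.1% and so close to the 9.47% of all genes tested, namely the cystine/glutamate exchanger Slc7a11 (3.32 ± 0.56 SE, limma adjusted p = 0.00501) and the neutral amino acid carrier Slc1a4 (1.92 ± 0.36 SE, limma adjusted p = 0.00691). Of 14 genes of the ATF4 response 3 rose, 21.4% (1 call without S7HP tumor 12, LHP tumor 3 or LHP tumor 6). They were Trib3 (2.08 ± 0.35 SE, limma adjusted p = 0.0049), Cebpg (0.87) and Ddit3 (1.26). Of 5 other glutamine genes 1 rose (20%), Gfpt1 (1.48), the entry enzyme of hexosamine synthesis. Gfpt1 was not called without S7HP tumor 9, LHP tumor 3 or LHP tumor 6.

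In S7HP+Snail against S7HP 0 of these 119 genes rose and 3 fell (2.52%), beside 1.01% higher and 1.29% lower among all genes tested. At an unadjusted p under 0.05 in limma, 4 were higher and 27 lower, beside 1212 higher and 1321 lower of all 14215. The 3 calls at an adjusted p became 0 to 5 over the alternative settings, with 0 without S7HP tumor 9, 11 or 12 and 1 without LHP tumor 2, 3 or 6. Those that fell were the glutamine transporter Slc38a1 (-2.88 ± 0.49 SE, limma adjusted p = 0.0216), Sdsl (-1.81 ± 0.37 SE, limma adjusted p = 0.0379) and Pcbd1 (-1.26 ± 0.26 SE, limma adjusted p = 0.0409). In S7HP+Snail against LHP 8 rose, among them Prodh2 (2.74), Foxa2 (2.60), Amdhd1 (2.36) and Hnf4a (1.85), and 3 fell, which were Slc38a1 (-1.87), the glycyl-tRNA synthetase Gars (-1.29) and the ornithine decarboxylase Odc1 (-1.23). These are 6.72% higher and 2.52% lower of the 119, beside 3.35% higher and 3.87% lower among all genes tested. The 11 calls became 4 to 13 over the alternative settings, with 5 without LHP tumor 3, 4 without LHP tumor 6, and 7 without LHP tumor 2 or S7HP+Snail tumor 15.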

How the data were processed

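RNA of 9 liver tumors had been taken with Trizol and made into QuantSeq libraries from 500 ng of total RNA, per the labels' protocols. Bowtie2, edgeR and mm10 are named in the submitters' processing notes without roles or versions. The values deposited by the authors are log2 of a quantile-normalized count plus 1, as their steps show: in each file 9 times the unlogged value was whole for 100% of values (tolerance 0.001 for small values, wider in proportion for large ones, which pass in any case). How reads were counted, with which annotation and on which strand is not given in the sources used here. Count tests were not run, since depth is not preserved.

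The 14215 genes that reached a log2 of 4 in 3 or more libraries were fitted over all 9 libraries with limma 3.58.1 (R 4.3.3; trend and robust variances, 6 residual degrees of freedom). Tests were two-sided with Benjamini-Hochberg adjustment over all of them. SE is limma's and SD is over 3 tumors. Fold changes are on the log2(value + 1) scale and understate changes of low genes. The procedure was tested on simulated data.

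The genes and lists were chosen with earlier results of these data known, and 240 of 243 list entries matched a symbol. Values per tumor were given for the 6 urea cycle enzymes, for every gene called, and for genes apart in S7HP against LHP with a change of at least 1. Genes outside the 37 were named at up to 3 called genes a list and comparison, by adjusted p, and Smad7 and Snai1 as a check of the labels. A few genes that this rule would name are not reported here. Per-tumor values of Tat, Bhmt, Prodh and Asns were added after seeing them. Coordinates are from GENCODE mouse release 21 on GRCm38. Tables and figures used Python 3.11.15 and matplotlib 3.10.9.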

Additional observations from a re-analysis of the deposited data

How the results depend on the processing

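Each result was recomputed under 16 alternatives: no filter or a mean log2 value of at least 6, a pseudocount of 10, libraries shifted to a common median, no intensity trend and no robust variances, only the 6 libraries compared, each of 9 libraries left out in turn, and, chosen after seeing the data, S7HP tumor 9 and S7HP+Snail tumor 14 left out together. The 10 calls of S7HP against LHP became 4 to 10 with 1 library left out and 6 without both tumors. The 1 call of S7HP+Snail against S7HP became 0 to 1 with 1 library left out, and 0 both without the intensity trend and without both tumors. The 4 calls of S7HP+Snail against LHP became 3 to 4 with 1 library left out. Over all genes tested and all alternatives the calls were 1465 to 3430 in S7HP against LHP (2702 as reported), 63 to 451 in S7HP+Snail against S7HP (327 as reported, 120 in a fit of 6 libraries and 181 without both tumors) and 293 to 1061 in S7HP+Snail against LHP (1026 as reported, 682 in a fit of 6 libraries). The cause was not tested. Among the 36 genes tested of the 37, no called gene changed sign, and 0 that were not called became called under any alternative. Calls kept in 16 of 16 were Glud1, Gldc, Cth and Shmt1 in S7HP against LHP and Glud1, Got1 and Shmt1 in S7HP+Snail against LHP. No paired analysis was possible because tumor numbers do not repeat between groups. With 3 tumors a group and depth not preserved, a gene without a call is not shown to be alike between groups.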

Other observations

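S7HP+Snail tumor 14 was also far above its group in some genes of glutamine and amino acid handling outside the 37, chosen here after their values were seen. Glul, the glutamine synthetase of hepatocytes around the central vein, was at 13.64 in tumor 14 and at 10.87 and 9.51 in tumors 13 and 15. Slc1a2, a glutamate transporter, was at 11.35 in tumor 14 and at 6.70 and 5.58 in tumors 13 and 15, and Slc43a1, a neutral amino acid transporter, was at 11.34 in tumor 14 and at 8.02 and 5.18 in tumors 13 and 15. Other genes of the same lists went the other way, with Gfpt1, Gmps, Ppat and Slc1a4 among those lowest of the group in tumor 14. Gfpt1 was at 11.54 in tumor 14 and at 13.00 and 12.24 in tumors 13 and 15. In tumor 14 the biliary markers Krt19 and Epcam were at 4.35 and 4.20.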
